A study of Mus musculus with 8 samples.

Results

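The naive and core pluripotency factors are 10 transcription factor genes: Pou5f1, Sox2, Nanog, Klf2, Klf4, Klf5, Esrrb, Tfcp2l1, Zfp42 and Gbx2. They were taken as every probe set whose single gene symbol in the platform annotation is one of these names. Among the 18194 named genes of the array all 10 were found, with 17 probe sets, and all 10 were among the 14267 genes tested. RNA of mouse embryonic stem cells of the 129X1 x 129S1 strain background was measured on 8 Affymetrix arrays in 4 groups of 2. In the groups labelled Co-culture, cells with a hairpin against Top1 (shTop1) or against p53 (shp53) shared a dish with mock cells for 4 days, at 1 knockdown cell to 4 mock cells. In the groups labelled Control, here called mixes, each kind of cell grew by itself for 4 days, and 1 part of knockdown RNA was added to 4 parts of mock RNA. Growth conditions were given as standard for stem cells in every group. The groups are therefore the shTop1 coculture, the shTop1 mix, the shp53 coculture and the shp53 mix, and all of them hold mock RNA. The design sets cocultures against mixes of RNA from cells grown apart. The share of knockdown cells in the cocultures at day 4 was not among the data used here. Effects of living together were therefore not separated from a change in that share.

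Mouse embryonic stem cells keep the state of the early epiblast through a small circuit of transcription factors. Pou5f1 (Oct4) and Sox2 bind DNA side by side and, with Nanog, form the core that is shared by naive and later pluripotent cells. Klf2, Klf4, Klf5, Esrrb, Tfcp2l1, Zfp42 (Rex1) and Gbx2 mark or sustain the naive state. Leukaemia inhibitory factor (LIF) feeds that state through STAT3, and the naive factors are shut down as cells move on to the primed epiblast.

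The regulatory sequence that ties several of these genes together is the octamer bound by Pou5f1, and its composite with a Sox site. Windows of the 250 bases before a gene's start were read from RefSeq promoter tables of build GRCm38.p6, in which 9 of the 10 genes had at least 1 window and Klf5 was not matched. Both strands were searched for the octamer ATGCAAAT, for its first letters ATGCAAA, and for the composite, which is CATTGT, then any 1 base, then ATGCAAA. The octamer was in 1.6% of 32851 windows and, of these factors, only in that of Zfp42. The shorter ATGCAAA, which every octamer and composite match contains, was in 4.12% of windows and in those of Nanog, Sox2 and Zfp42. The composite was in 2 windows, both of Nanog and overlapping each other. The Sox letters CATTGT alone, which the composite contains, were in 10.7% of windows and in those of Nanog and Pou5f1. The GC box GGGCGGG, a common binding sequence of Krüppel-like and Sp factors, was in 23.4% of windows and in those of Klf2, Klf4, Pou5f1, Sox2 and Zfp42. These windows are shown because Nanog, Sox2 and Zfp42 carry the matches, and that of Gbx2 because this gene had the largest coculture difference of the 10. Each is given 5′ to 3′ on the gene's strand, with the match in capitals.
Nanog (chr6:122707239-122707488, plus strand): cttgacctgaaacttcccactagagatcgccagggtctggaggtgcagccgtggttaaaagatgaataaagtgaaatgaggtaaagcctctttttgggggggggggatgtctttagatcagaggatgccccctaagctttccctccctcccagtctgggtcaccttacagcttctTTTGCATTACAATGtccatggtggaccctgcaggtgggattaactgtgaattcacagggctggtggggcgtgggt
Zfp42 (chr8:43307010-43307259, minus strand): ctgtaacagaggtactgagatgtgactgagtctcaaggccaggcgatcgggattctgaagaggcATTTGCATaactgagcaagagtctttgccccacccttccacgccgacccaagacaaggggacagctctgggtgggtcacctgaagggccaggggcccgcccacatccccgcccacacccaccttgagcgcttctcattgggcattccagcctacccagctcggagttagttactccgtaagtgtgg
Sox2 (chr3:34649745-34649994, plus strand): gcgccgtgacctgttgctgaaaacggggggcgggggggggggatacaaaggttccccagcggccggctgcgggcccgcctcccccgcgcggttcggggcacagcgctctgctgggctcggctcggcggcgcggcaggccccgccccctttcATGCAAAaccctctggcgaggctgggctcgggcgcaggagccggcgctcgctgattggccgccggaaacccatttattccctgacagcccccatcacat
Gbx2 (chr1:89931177-89931426, minus strand): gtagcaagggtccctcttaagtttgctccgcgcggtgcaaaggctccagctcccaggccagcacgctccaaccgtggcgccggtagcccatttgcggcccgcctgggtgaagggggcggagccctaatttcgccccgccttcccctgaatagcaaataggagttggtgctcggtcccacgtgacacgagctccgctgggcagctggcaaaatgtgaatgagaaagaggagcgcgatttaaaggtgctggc
The capitals in Nanog are the composite, read on the opposite strand, from 75 to 62 bases before this start. Those in Zfp42 are the octamer on the opposite strand, from 186 to 179 bases before the start, and those in Sox2 are ATGCAAA on the gene's own strand, from 99 to 93 before it. The Gbx2 window holds none of the searched letters. A match is a description of the sequence and does not show that a factor binds there. The 3 genes with a match did not lie on one side of the mixes, since Nanog was higher and Sox2 and Zfp42 lower in the cocultures, as given below.

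Signals below are intensities after quantile normalization, and log2 differences are coculture minus mix on log2(signal + 16), so the change of dim genes is understated. The deposited signal averaged 812 to 896 over an array, and precision is limited by how few arrays there are. Top1, the target of one hairpin, had signals of 5281 and 5283 in the shTop1 coculture, 5109.6 and 5316 in the shTop1 mix, 5572 and 5886 in the shp53 coculture, and 5456 and 5682 in the shp53 mix. Knockdown RNA was 20% of each mix, and its share in the cocultures at day 4 was not among the data used here. The labels call the replicates biological but do not say that they came from separate cultures, so a p-value here reflects how far these samples differ, which may be technical. Of the 7 pluripotent markers, 0 were under a mean signal of 100. Fibroblast markers were dim, with 6 of 8 under a signal of 100, and Col3a1, Postn, Dcn and Lum were below the filter on low signal. The shTop1 coculture replicate 1 had the highest mean signal (896). On the second principal component of the tested genes (16.9% of the variance) it lay at 32.6, and the other arrays from -15.5 to 3.63. Values that rest on that replicate are therefore also given without it. On the first component (19.9%) the extremes were shTop1 coculture replicate 2, at -26.1, and shp53 mix replicate 1, at 21.1. Leaving out shTop1 coculture replicate 1 widened the Sox2 and Zfp42 differences, and leaving out its replicate 2 narrowed them, as given below.

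In the cocultures the 10 factors lay on both sides of their level in the mixes. Averaged over both knockdowns, 5 were above 0 and 5 below, with a median log2 difference of 0.006, against 0.022 for all genes tested. The factors below 0 were Gbx2 (-0.63), Sox2 (-0.29), Zfp42 (-0.28), Klf4 (-0.15) and Klf5 (-0.05). Those above 0 were Nanog (0.20), Tfcp2l1 (0.12), Pou5f1 (0.11), Klf2 (0.07) and Esrrb (0.06). None of the 10 passed limma's test (adjusted p 0.333 to 0.812), and 0% of all 14267 genes did. At an unadjusted p under 0.05, 2 of the 10 were lower, Gbx2 and Zfp42, where 4.63% of all genes were, and 0 of the 10 were higher, where 7.09% of all genes were. Letting limma use trended, robust variances gave 31 calls, none of them among the 10. The unadjusted p of Zfp42 stayed under 0.05 when shTop1 coculture replicate 1 or shp53 coculture replicate 2 was left out, and not when any other array was. In bulk RNA a smaller share of cells with a transcript and less of it per cell cannot be told apart.

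**Figure D1:**
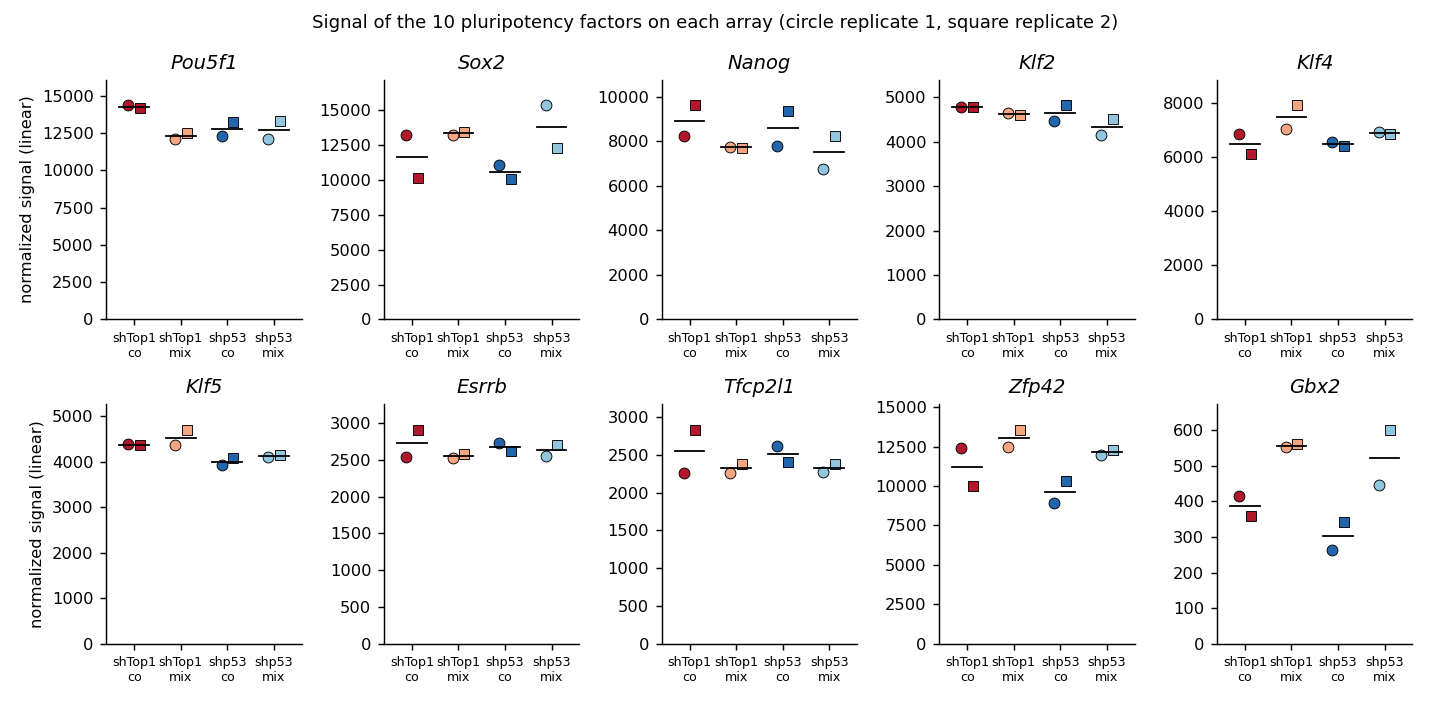
Normalized signal (linear axis from 0) of each factor on each of the 8 arrays, with circles for replicate 1, squares for replicate 2 and a line at each group's mean of 2. Gbx2 lies lower in every coculture (264 to 414) than in every mix (445 to 601), and Pou5f1 is highest in the shTop1 coculture.

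Of the core factors, Pou5f1 encodes the POU-domain protein Oct4. It had 14351 and 14159 in the shTop1 coculture, against 12085 and 12492 in the shTop1 mix. It had 12327 and 13245 in the shp53 coculture, against 12104 and 13312 in the shp53 mix. The shTop1 cocultures lay above every other array, while the shp53 cocultures lay inside the range of their mixes. The log2 difference was 0.21 with shTop1 (95% interval -0.03 to 0.46) and 0.01 with shp53 (-0.24 to 0.26). The effect with shTop1 minus that with shp53 was 0.20 (interval -0.15 to 0.55), so these data do not set the knockdowns apart for this gene.

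Sox2, the HMG-box partner of Pou5f1, had 13218 and 10105 in the shTop1 coculture, against 13234 and 13447 in the shTop1 mix. It had 11104 and 10054 in the shp53 coculture, against 15341 and 12271 in the shp53 mix. Within each knockdown both cocultures were below both mixes, narrowly so in shTop1 replicate 1 (13218 against 13234), and over all arrays the groups overlapped through that same array. With the authors' scaling alone that array was at 14407, above both shTop1 mixes (13057 and 13077). The log2 difference with shTop1 was -0.21, and -0.014 without shTop1 coculture replicate 2. The means were 11120.3 ± 1479 in the cocultures and 13573 ± 1285 in the mixes (SD, n = 4 each). The fitted cocultures were at 0.817 times the mixes as signal plus 16 (95% interval 0.664 to 1.006, limma adjusted p = 0.433). Without shTop1 coculture replicate 1 the log2 difference was -0.38, the cocultures lay below all mixes and the adjusted p was 0.292. Without shTop1 coculture replicate 2 it was -0.20, and without shp53 mix replicate 1, the brightest array for this gene, it was -0.21.

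Nanog, a homeobox factor whose level is known to vary from cell to cell, averaged 8752 ± 878 in the cocultures and 7612 ± 622 in the mixes (SD, n = 4 each). It had 8239 and 9608 in the shTop1 coculture, against 7742 and 7717 in the shTop1 mix. It had 7787 and 9374 in the shp53 coculture, against 6751 and 8239 in the shp53 mix. The shTop1 cocultures were above their mixes and the shp53 groups overlapped. The log2 difference was 0.20 with each knockdown, and over both its interval ran from -0.07 to 0.47 (adjusted p = 0.517). Leaving out 1 array gave 0.13 (without shp53 mix replicate 1) to 0.27 (without shp53 mix replicate 2), and without shp53 coculture replicate 2 it was also 0.13.

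The opposite signs within the core can be read as a ratio inside each array, which multiplying a whole array by a constant leaves nearly as it is. Relative to the mean of the mixes, the log2 ratio of Pou5f1 to Sox2 was 0.23 and 0.60 in the shTop1 coculture, against -0.02 and 0.01 in the shTop1 mix. It was 0.27 and 0.51 in the shp53 coculture, against -0.23 and 0.23 in the shp53 mix. All cocultures were at or above the highest mix, the closest pair being 0.23 and 0.23, and the mean over the cocultures was 0.40 (SD 0.18, n = 4, and SD 0.19 over the 4 mixes). This pair was picked after its values were seen, so no test is given. The log2 ratio of Pou5f1 to Zfp42 was 0.22 to 0.51 in the cocultures and -0.11 to 0.12 in the mixes, while that of Zfp42 to Sox2 averaged 0.01 in the cocultures (SD 0.15) with an SD of 0.17 in the mixes. For Nanog to Sox2 the groups overlapped, with 0.15 to 0.76 in the cocultures and -0.35 to 0.26 in the mixes. Nanog to Pou5f1 also overlapped, with -0.08 to 0.22 in the cocultures and -0.12 to 0.08 in the mixes. How many gene pairs separate the conditions was not counted.

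The Krüppel-like factors Klf2, Klf4 and Klf5 are zinc finger proteins with overlapping roles in self-renewal, and their mean differences lay between -0.15 and 0.07. Klf4, a target of STAT3, had 6858 and 6100.2 in the shTop1 coculture, against 7016 and 7902 in the shTop1 mix. It had 6550.4 and 6395 in the shp53 coculture, against 6911 and 6864 in the shp53 mix. All 4 cocultures were below all 4 mixes, which was so for 3.35% of all genes, but narrowly (6858 against 6864 at the closest), and with the authors' scaling alone or with median centring the groups overlapped. The log2 difference was -0.15 (interval -0.34 to 0.05, adjusted p = 0.511), and a dimmer Klf4 probe set had -0.01 (SE 0.11).

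Klf2 had 4796 and 4778.5 in the shTop1 coculture, against 4653 and 4614 in the shTop1 mix, and 4480.2 and 4821 in the shp53 coculture, against 4165 and 4515 in the shp53 mix. Its shTop1 cocultures lay above their mixes and its shp53 groups overlapped, and the mean difference was 0.07 (interval -0.10 to 0.24). Klf5 had 4386 and 4361 in the shTop1 coculture, against 4354 and 4699 in the shTop1 mix, and 3919 and 4079 in the shp53 coculture, against 4095 and 4152 in the shp53 mix. Its shTop1 groups overlapped and its shp53 cocultures lay below their mixes. Its mean difference was -0.05 (interval -0.21 to 0.12), and it was 0.01 with median centring, so it has no settled sign. With spreads between replicates of 0.044 and 0.056 on the log2 scale, Klf5 and Klf2 lay at percentiles 2.91 and 5.84 of that spread over all genes tested.

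Among the other naive factors, the orphan nuclear receptor Esrrb had 2544 and 2911 in the shTop1 coculture, against 2529 and 2575 in the shTop1 mix. It had 2727 and 2628 in the shp53 coculture, against 2555 and 2709.7 in the shp53 mix. The groups overlapped in each knockdown, and the mean difference was 0.06 (interval -0.13 to 0.24), or 0.01 without shTop1 coculture replicate 2. The other Esrrb probe sets, at signals of 189 to 293 and of 455 to 787, had 0.15 (SE 0.13) and 0.22 (SE 0.17). These means came from shTop1 (0.32 and 0.50), since with shp53 the same probe sets had -0.01 and -0.07.

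Tfcp2l1, a CP2-family factor that acts downstream of LIF, had 2263 and 2831 in the shTop1 coculture, against 2264 and 2378 in the shTop1 mix. It had 2610.2 and 2409.6 in the shp53 coculture, against 2278 and 2378 in the shp53 mix. The lowest and the highest of the 8 arrays were the replicates of the shTop1 coculture, and the shp53 cocultures lay above their mixes. The mean difference was 0.12 (interval -0.11 to 0.35), 0.19 without shTop1 coculture replicate 1 and 0.04 without shTop1 coculture replicate 2. The remaining probe sets of this gene were at 1.9 to 43.4 in signal, around or below the filter of 22.1, and had differences of opposite sign (0.78 and -0.43) that are too dim to read.

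Zfp42, a zinc finger gene that is a standard reporter of the naive state, had 12419 and 9989 in the shTop1 coculture, against 12475 and 13570.2 in the shTop1 mix. It had 8952 and 10340.4 in the shp53 coculture, against 11975 and 12292 in the shp53 mix. After quantile normalization both cocultures were below both mixes within each knockdown. This was also so for Sox2, Klf4 and Gbx2, that is for 4 of the 10 factors and 5.72% of all genes. With the authors' scaling alone, Zfp42 in shTop1 coculture replicate 1 was at 13698, above both shTop1 mixes (12156 and 13151). Sox2 and Klf4 lost the pattern with that scaling too, while Gbx2 kept it, and the share of all genes was not counted there. The opposite pattern, both cocultures above both mixes in each knockdown, was found in 0 of the 10 and in 8.81% of all genes. Over all arrays the groups overlapped through shTop1 coculture replicate 1. Without it, Sox2, Klf4, Zfp42 and Gbx2 had all cocultures below all mixes (4 of 10, with 6.74% of all genes), and without shp53 mix replicate 2 so did Sox2, Klf4 and Gbx2 (3 of 10, with 5.5% of all genes). On the other side, all cocultures were above all mixes for Tfcp2l1 without shTop1 coculture replicate 1 (1 of 10, with 10.4% of all genes). The same held for Nanog without shp53 mix replicate 2 (1 of 10, with 8.9%) and for Klf2 without shp53 coculture replicate 1 (1 of 10, with 7.98%). The means were 10425 ± 1454 in the cocultures and 12578 ± 693 in the mixes (SD, n = 4 each). The fitted level in coculture was 0.824 times that of the mixes (interval 0.694 to 0.978, adjusted p = 0.390 by limma, and 0.033 before adjustment). The log2 difference of -0.28 became -0.35 without shTop1 coculture replicate 1 (adjusted p = 0.273), and -0.20 without shTop1 coculture replicate 2.

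Gbx2, a homeobox gene that STAT3 induces and that can hold stem cells in self-renewal, showed the largest difference. It had 413.7 and 358.7 in the shTop1 coculture, against 553.5 and 559.8 in the shTop1 mix. It had 264 and 343 in the shp53 coculture, against 445 and 601 in the shp53 mix. The means were 345 ± 61.8 in the cocultures and 539.8 ± 66.6 in the mixes (SD, n = 4 each). Every coculture was below every mix, also with the authors' scaling alone, but not with median centring, where the groups overlapped. Of all genes 3.35% had all 4 cocultures below all 4 mixes and 5.75% had them all above, which 0 of the 10 factors had. The fitted level in coculture was 0.645 times that of the mixes as signal plus 16 (interval 0.515 to 0.810), and its p was the 123rd smallest of 14267 genes (unadjusted p = 0.0032, adjusted p = 0.333 by limma). The log2 difference was -0.51 with shTop1 and -0.75 with shp53, and the difference between these, 0.24, had an interval of -0.42 to 0.89. Leaving out each array in turn gave -0.74 to -0.53. Its spread between replicates, 0.21 on the log2 scale, was at percentile 60.8 of all genes tested.

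**Figure D2:**
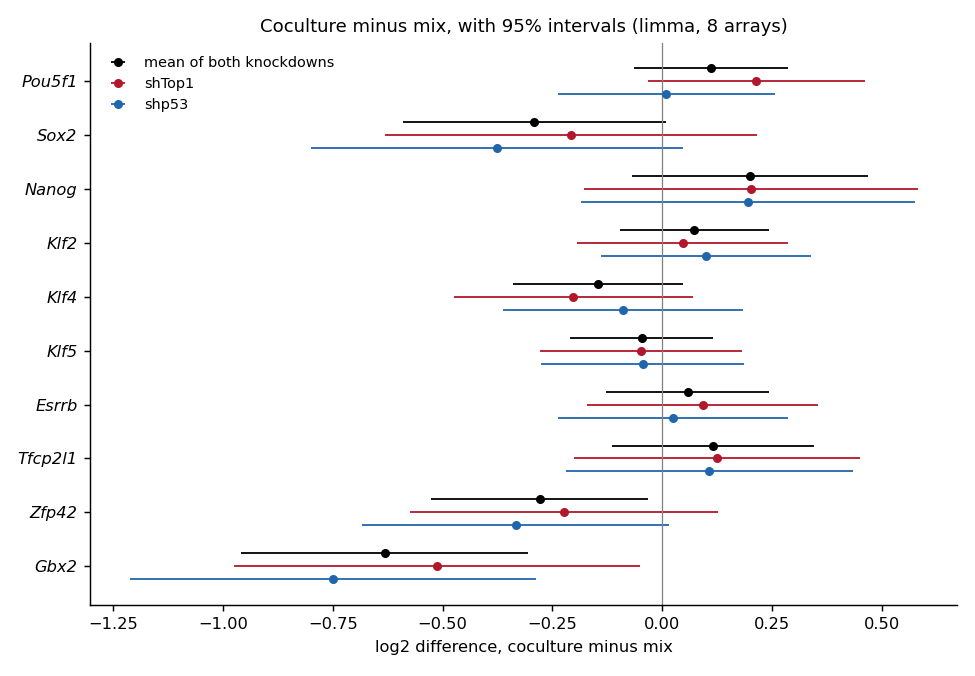
Log2 difference, coculture minus mix, of each factor averaged over both knockdowns (black), with shTop1 (red) and with shp53 (blue), with 95% intervals from limma. Averaged over both knockdowns, the intervals of Gbx2 and Zfp42 lie below 0 and those of the other factors include it, as the interval of Sox2 does narrowly (-0.59 to 0.01).

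Set side by side, the 2 knockdowns had the same sign for all 10 factors, and each is measured against its own mixes, although the labels do not say whether the mixes shared mock RNA. Some of these values were near 0 (with shp53, Pou5f1 0.0095 and Esrrb 0.025), and some signs turned with other settings, as given below. The share of all genes with the same sign in both knockdowns was not counted. With shTop1, 5 factors were above 0 and 5 below (median -0.001), and with shp53 also 5 and 5 (median -0.017). In each knockdown 0 of the 10 passed limma's test (adjusted p 0.605 to 0.922 with shTop1 and 0.685 to 0.990 with shp53), as did 0% of all genes. At an unadjusted p under 0.05 only Gbx2 was lower in each, where 3.08% of all genes were lower with shTop1 and 2.99% with shp53. No factor was higher at that level, where 5.12% of all genes were with shTop1 and 3.87% with shp53. The test of the difference between the knockdowns called 0 of the 10 and 0% of all genes, with 0 of the 10 and 614 of all genes at an unadjusted p under 0.05. Averaged over conditions, shTop1 minus shp53 was 0.13 for Klf5 (interval -0.03 to 0.29), 0.16 for Zfp42 (-0.09 to 0.40) and 0.22 for Gbx2 (-0.11 to 0.55). Zfp42 had 0.08 without shTop1 coculture replicate 1 and 0.23 without shTop1 coculture replicate 2. Gbx2 had 0.12 without shp53 mix replicate 1, 0.13 without shp53 coculture replicate 1 and 0.33 without shp53 mix replicate 2. Klf5 had 0.05 with its probe sets averaged and 0.21 with median centring. In this comparison limma called 0 of the 10 and 0% of all genes, with 0 of the 10 and 670 of all genes at an unadjusted p under 0.05.

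The factors with more than 1 probe set are Klf4, Klf5, Esrrb and Tfcp2l1, and 15 of the 17 probe sets passed the filter on low signal. Each gene was represented by its brightest probe set. For Klf5 the dimmer probe set at 225 to 403 had -0.19 (SE 0.19), and the third, at 4.5 to 21.6, did not pass the filter. Sox2, Nanog, Pou5f1, Klf2, Zfp42 and Gbx2, which include the factors with the largest differences, rest on 1 probe set each.

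**Figure D3:**
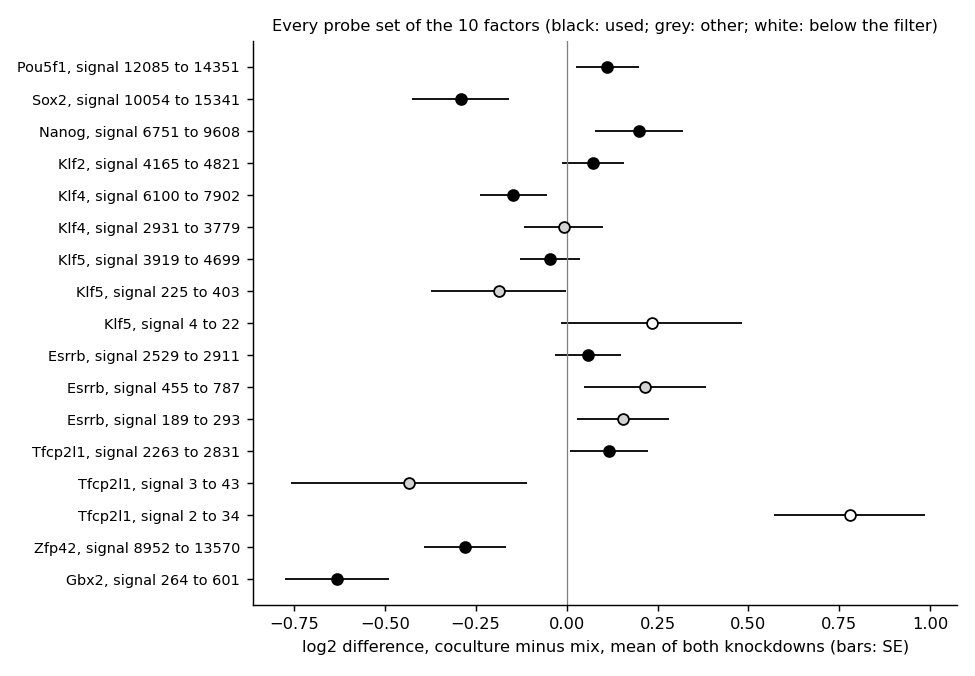
Log2 difference, coculture minus mix over both knockdowns, for each of the 17 probe sets with its SE, labelled by gene and by the range of its signal over the 8 arrays. The 3 Esrrb probe sets are all above 0, while the dim probe sets of Tfcp2l1 and Klf5 scatter widely.

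By range over the 8 arrays on the log2 scale, Gbx2 (1.14) and Sox2 (0.61) varied most and Esrrb (0.20) and Klf2 (0.21) least. The genes with the pattern most like Gbx2 and Sox2 were sought by the root mean square difference of centred log2 signal over the 8 arrays, with no test. For Gbx2, which itself lay 0.37 from its own mean by this measure, they were Zic2 (0.13), Zfp819 (0.16), Lrrc14, Zfp213 and Klf13 (0.17 each). Zic2, a zinc finger factor of the primed epiblast, had coculture differences of -0.39 with shTop1 and -0.60 with shp53. Among the other 9 factors Zfp42 was closest to Gbx2 (0.21, rank 58) and Nanog the farthest (0.44). For Sox2, at 0.20 from its own mean, they were Tmem131 (0.055), Rif1 (0.059), Ppip5k2 (0.060), Carnmt1 (0.061) and 2410004B18Rik (0.061).

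Partners of these factors in the pluripotency network were split as well. Of the partners, 27 were tested, 12 above 0 and 15 below, with a median of -0.02. The split turned with the knockdown, with 17 above and 10 below for shTop1 (median 0.03) and 8 above and 19 below for shp53 (median -0.07). Over both knockdowns, leaving out shTop1 mix replicate 2 gave a median of -0.06, and leaving out shTop1 mix replicate 1 gave 0.0015. None passed limma's test. At an unadjusted p under 0.05, 5 of 27 partners were lower and 2 of 27 higher, where 4.63% of all genes were lower and 7.09% higher. The lower ones were Zfp281, a zinc finger protein that restrains Nanog, Zscan10, the methylcytosine dioxygenase Tet1, Dppa2 and Mycn. Zfp281 had 1893 to 2049.8 in the cocultures and 2533 to 2627 in the mixes, without overlap, a log2 difference of -0.40 (SE 0.07, adjusted p = 0.333). Zscan10 had 1559 to 1764 in the cocultures and 1805 to 2033 in the mixes, a difference of -0.26 (adjusted p = 0.357). The higher ones were Fgf4, the growth factor that Pou5f1 and Sox2 switch on together (0.21), and the surface protein gene Pecam1 (0.20, but 0.40 with shTop1 and -0.005 with shp53).

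The LIF and STAT3 genes comprise receptor, kinase and STAT3 genes of the pathway and genes that STAT3 induces. Of 10 tested, 6 were above 0 and 4 below, with a median of 0.05 and none at an unadjusted p under 0.05. The receptor gene Lifr had 2698 to 3125 in the cocultures and 3231 to 3577 in the mixes, without overlap (-0.15, adjusted p = 0.492). Bcl3 had -0.05, and the kinase genes Pim1 and Jak1 had 0.13 each. Socs3, the feedback inhibitor that STAT3 induces, had 0.06 (SE 0.09).

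The primed epiblast genes differed from this picture, with 12 of 12 tested below 0 (44.7% of all genes were) and a median of -0.28, though this pattern was known from earlier results of these arrays. None of them passed limma's test over all genes, and 6 of 12 were lower at an unadjusted p under 0.05, where 4.63% of all genes were. Fgf5 had 22.6 to 76.3 in the cocultures and 80.7 to 119 in the mixes, and the POU factor gene Pou3f1 had 565 to 724.5 in the cocultures and 747.5 to 953 in the mixes. Fgf5 had a difference of -1.004 (-1.62 with shTop1 and -0.39 with shp53) and Pou3f1 one of -0.47. Fgf5 is dim, with its lowest coculture signal (22.6) close to the filter of 22.1, so the size of its difference is uncertain.

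**Figure D4:**
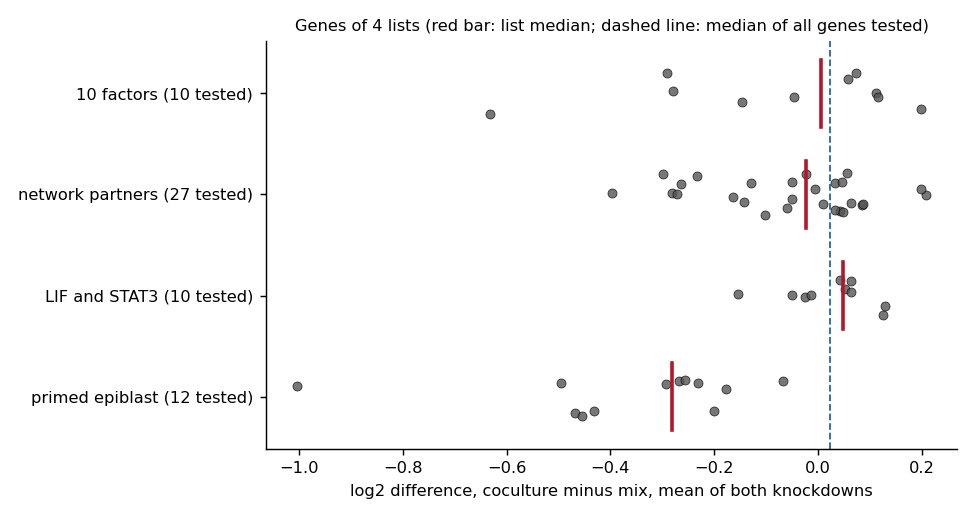
Log2 difference, coculture minus mix over both knockdowns, of each tested gene (points) in 4 lists, with list medians (red) and the median of all genes tested (dashed). The 10 factors lie on both sides of 0, from -0.63 (Gbx2) to 0.20 (Nanog), and the 12 primed epiblast genes all lie below 0.

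For 3 other cell types (primitive endoderm, trophectoderm and fibroblasts) the summed marker signal did not overlap between the conditions. A sum is weighted towards its brightest genes, such as Sparc (mean signal 16892) and Krt8 (4332). Gene by gene, all cocultures were above all mixes for 0 of 8 primitive endoderm, 1 of 6 trophectoderm and 1 of 4 fibroblast markers. That share was 5.75% over all genes. With shTop1, 6 primitive endoderm markers were above 0 and 2 below. The summed signal of the primitive endoderm markers (8 of 8 tested, 8 above 0) was 37886 to 43767 in the cocultures and 35493 to 37747 in the mixes, with Sparc and Gata6 at 0.19 each. That of the trophectoderm markers (6 of 7 tested, Elf5 below the filter) was 7844 to 8482 in the cocultures and 6903 to 7681 in the mixes, with Krt8 at 0.14, Krt18 at 0.15 and Cdx2 at -0.03. That of the fibroblast markers (4 of 8 tested) was 649 to 727 in the cocultures and 478 to 609 in the mixes. Thy1 had 0.35 (limma adjusted p = 0.345) and the dim gene Col1a2 had 0.39 (interval -0.02 to 0.81). The mesoderm markers (4 of 6 tested) had 351 to 450.2 in the cocultures and 355 to 412 in the mixes, with Mesp1 at -0.08. The dim genes Tbx6 (0.23) and Mixl1 (0.19) had opposite signs in the knockdowns, Tbx6 0.70 with shTop1 and -0.23 with shp53, and Mixl1 -0.13 with shTop1 and 0.51 with shp53. The neural markers (5 of 6 tested) had 853 to 1020.0 in the cocultures and 967 to 1047 in the mixes, with Pax6 at 0.02 and Tubb3 at -0.02. Nes had 0.10 on average, 0.39 with shTop1 and -0.18 with shp53. Sox1 had -0.99 on average, -0.27 with shTop1 and -1.72 with shp53, with signals of 3.4 to 81.5 in the cocultures, the lowest of them under the filter, and 90.3 to 121 in the mixes. The 2-cell-like markers (1 of 5 tested, Zfp352 at 0.03) had 51.2 to 119 in the cocultures and 50.9 to 96.4 in the mixes. The pluripotent markers summed to 103667 to 110505 in the cocultures and 105799.9 to 107951 in the mixes, so their total overlapped. None of these markers passed limma's test, and their part in the differences of Gbx2, Sox2 and Zfp42 was not tested.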

How the data were processed

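RNA from 8 mouse embryonic stem cell samples was hybridised to Affymetrix arrays, per the labels. Each probe set has 1 deposited intensity on a linear scale, with the summarising tool not given in the sources used here. The authors had scaled each array to a trimmed mean near 500.003, as read from the values. Of 45101 probe sets 34958 had 1 gene symbol, 932 several and 9211 were unlisted. Symbols were updated through gene identifiers. After quantile normalization and log2(value + 16), the brightest probe set stood for its gene. Genes with a mean signal under 22.1, the 30th percentile over probe sets, were dropped. In R 4.3.3, limma 3.58.1 (lmFit, then eBayes) estimated the 4 group means from all arrays, leaving 4 residual degrees of freedom, with two-sided p-values, Benjamini-Hochberg adjusted over 14267 genes, threshold 0.05. The steps were tested on simulated data. Tables and figures used Python 3.11.15.

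The members and gene lists were chosen with earlier results of these data known. All 10 members are named, with, per list, the 2 genes of smallest p in each direction. Other genes were named after their values were seen: Tet1, Dppa2, Mycn and Socs3. A probe set for the p53 gene itself is not reported here. Alternatives were a replicate block, other scalings, pseudocounts and filters, other probe set rules, trended, robust variances, fits of one knockdown's groups, and leaving out each array.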

Additional observations from a re-analysis of the deposited data

How the results depend on the processing

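Of the 10 factors, 9 kept their sign in the mean coculture comparison under every alternative run, and none of the 10 was called in any. In the run with every probe set by itself, the sign is that of the brightest probe set, and a dim Tfcp2l1 probe set had -0.43. Gbx2 ranged from -0.74 to -0.53 leaving out 1 array and from -0.65 to -0.57 otherwise, Sox2 from -0.38 to -0.20 and from -0.29 to -0.21, and Zfp42 from -0.35 to -0.20 and from -0.28 to -0.18. Trended, robust variances in limma gave 31 calls in the mean comparison, 3 with shTop1 and 1 with shp53, against 0 otherwise. The labels tie same-numbered replicates together only by that number. Deviations of same-numbered arrays correlated at -0.007 to 0.051 over genes, which cannot exclude a batch that touches some genes or groups. With the replicate block the count stayed 0 in all 5 comparisons (1692 genes at an unadjusted p under 0.05 in the mean comparison, against 1672), and the 10 factors kept their values, Gbx2 at -0.63. Median centring raised the median of all genes by 0.046 and those of the 10 factors and the partners to 0.069 and 0.044, and left 1 LIF and STAT3 gene below 0 in place of 4. The partners' median was -0.056 with probe sets averaged by gene and -0.059 with every probe set by itself. Signs turned in 48 values, and the cause was not tested. With median centring Klf5 had 0.015 in the mean comparison, 0.017 with shTop1, 0.012 with shp53 and 0.0058 for the difference between knockdowns, and Esrrb 0.062 for shTop1 minus shp53. With probe sets averaged by gene Klf5 had 6.1e-05, 0.027 (shTop1) and 0.054 (difference), Tfcp2l1 -0.0066 (shTop1) and -0.32 (difference), and Esrrb -0.020 (shp53) and 0.041 (shTop1 minus shp53). With the authors' scaling alone Pou5f1 had -0.018 with shp53, and for the difference Klf5 had 0.0014 and Tfcp2l1 -0.0036. Leaving out 1 array, these ranges crossed 0: with shTop1 Esrrb (-0.0043 to 0.19), Klf5 (-0.10 to 0.0058) and Tfcp2l1 (-0.036 to 0.28), and with shp53 Esrrb (-0.017 to 0.067) and Pou5f1 (-0.058 to 0.077). For the difference between knockdowns they were Esrrb (-0.029 to 0.16), Klf2 (-0.11 to 0.0058), Klf5 (-0.060 to 0.050), Nanog (-0.14 to 0.15), Sox2 (-0.029 to 0.36), Tfcp2l1 (-0.14 to 0.18) and Zfp42 (-0.048 to 0.26). For shTop1 minus shp53 they were Esrrb (-0.059 to 0.037), Nanog (-0.016 to 0.13), Sox2 (-0.048 to 0.14) and Tfcp2l1 (-0.076 to 0.084). With 2 arrays a group, the width of the intervals limits what can be shown.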
